A study of Mus musculus with 12 samples.

Results

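The D-type cyclins, the kinases they activate and the inhibitors of those kinases were followed as 10 genes, chosen by gene name from the deposited tables: Ccnd1, Ccnd2, Ccnd3, Cdk4, Cdk6, Cdkn2b, Cdkn2c, Cdkn2d, Cdkn1a and Cdkn1b. The tables together held 26244 genes. All 10 genes had a row in the in vivo tables, and 9 had one in the in vitro tables, where Cdkn2b had none. The RNA came from 4T1, a line of mouse mammary carcinoma cells, with 4 groups of 3 libraries. The old lung and young lung groups were 4T1 cells carrying mNeonGreen, a green fluorescent protein, sorted at 100000 cells per sample from the lungs of Balb/c mice labelled old or young, 4 weeks after 5000 cells had been injected into the tail vein. The old IFE and young IFE groups were cultured 4T1 cells with shNT in their titles, an abbreviation the labels do not explain, kept without serum for 72 h in medium of which 25% was interstitial fluid extract (IFE), drawn from lungs of old or young mice that carried 4T1 metastases. By their labels all 12 libraries are thus of 1 cell line, although the lung libraries also held markers of other cells, given below. The labels give no ages in weeks or months, and they do not say whether the 3 libraries of a group came from separate animals or cultures, so p-values measure the spread between these libraries, which may be technical. By its title, the series set out to model cancer of old age in culture by means of IFE.

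D cyclins bind and activate the kinases CDK4 and CDK6, and the active complexes phosphorylate the retinoblastoma protein, which releases E2F transcription factors and lets a cell pass from G1 into S phase. INK4 proteins (p15 from Cdkn2b, p18 from Cdkn2c, p19 from Cdkn2d) bind CDK4 and CDK6 alone and keep cyclin D away from them. CIP/KIP proteins (p21 from Cdkn1a, p27 from Cdkn1b) bind cyclin-CDK complexes, inhibit those of CDK2 and can also help cyclin D and CDK4 assemble. In mammary epithelium cyclin D1 is the D cyclin best known for a role in growth and in carcinoma. Much of the control of these proteins lies in their stability, which RNA levels do not show.

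Windows upstream of transcript starts are shown for Cdkn1a, Cdkn2c and Cdkn2d, the inhibitor genes whose RNA was more than 2-fold higher in lung than in culture, and for Cdk4, the more abundant of the 2 kinase genes, which was lower. They were taken from RefSeq on GRCm38.p6, a build whose coordinates are not those of the deposited tables, and each holds the 250 bases before a start, 5′ to 3′ on the gene's strand. Capitals mark matches on either strand to GGGCGG (a GC box, the motif bound by SP1), CACGTG (an E-box of the kind bound by MYC and MAX) or, in the first Cdkn1a window, a p53 response element. RefSeq windows were found for 8 of the 10 members, that is for all but Ccnd1 and Ccnd2.
Cdkn1a, upstream start, chr17:29090729-29090978, + strand: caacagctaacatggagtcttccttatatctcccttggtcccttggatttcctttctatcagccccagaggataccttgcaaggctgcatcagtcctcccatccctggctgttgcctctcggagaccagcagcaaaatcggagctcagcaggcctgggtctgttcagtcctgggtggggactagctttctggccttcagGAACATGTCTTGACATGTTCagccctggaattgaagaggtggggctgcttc
Cdkn1a, downstream start, chr17:29093519-29093768, + strand: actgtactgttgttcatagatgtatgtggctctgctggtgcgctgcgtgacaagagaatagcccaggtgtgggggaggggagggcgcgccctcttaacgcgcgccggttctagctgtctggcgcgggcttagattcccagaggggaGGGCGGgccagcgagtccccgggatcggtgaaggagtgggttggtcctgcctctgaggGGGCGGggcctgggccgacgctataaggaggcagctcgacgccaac
Cdkn2c, chr4:109666757-109667006, - strand: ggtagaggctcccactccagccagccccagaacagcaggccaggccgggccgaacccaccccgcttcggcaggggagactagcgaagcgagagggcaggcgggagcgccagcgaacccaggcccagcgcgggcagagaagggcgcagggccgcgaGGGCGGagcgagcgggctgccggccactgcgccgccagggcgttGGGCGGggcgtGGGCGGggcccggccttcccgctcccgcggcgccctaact
Cdkn2d, chr9:21291210-21291459, - strand: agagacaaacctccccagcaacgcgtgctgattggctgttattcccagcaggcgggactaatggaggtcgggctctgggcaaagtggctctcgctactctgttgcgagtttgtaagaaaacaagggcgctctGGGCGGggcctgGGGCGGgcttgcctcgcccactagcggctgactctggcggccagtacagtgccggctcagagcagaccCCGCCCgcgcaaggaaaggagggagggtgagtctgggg
Cdk4, chr10:127063285-127063534, + strand: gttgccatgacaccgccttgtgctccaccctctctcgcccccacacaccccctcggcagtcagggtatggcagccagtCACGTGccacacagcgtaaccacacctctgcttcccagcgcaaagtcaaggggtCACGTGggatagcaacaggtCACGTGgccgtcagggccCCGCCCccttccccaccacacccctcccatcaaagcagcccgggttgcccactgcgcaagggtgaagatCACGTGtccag

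In the upstream Cdkn1a window the p53 response element began 51 bases before the start. It was searched as 20 bases with at most 1 base off the consensus, after the sequence had been read, and 0.0761% of 32851 RefSeq windows of this length held such a match. Cdkn1a is a textbook target of p53. The downstream Cdkn1a window held no such match and carried GC boxes 104 and 46 bases before its start. The Cdkn2c and Cdkn2d windows shown each carried 3 GC boxes, at 95, 51 and 40 bases in Cdkn2c and at 118, 106 and 38 bases in Cdkn2d. A second Cdkn2c window, before a downstream start, held none of the motifs searched and is not shown. A GC box stood in 32.7% of all windows. The Cdk4 window held 4 E-boxes, at 172, 118, 98 and 11 bases before the start, while 6.02% of all windows held at least 1. The Cdk6 window, which is not shown, held 1 E-box, 220 bases before its start. Cdk4 is known as a MYC target. None of the 11 windows of members matched the E2F site TTTNGCGC, which 1.13% of all windows held, the AP-1 site TGANTCA (6.75%), an interferon response element (2.98%) or the SMAD box GTCTAGAC (0.167%). The TATA box TATAAA, found in 12.4% of all windows, was matched only in the Cdk6 window among those of members, and the FOXO site GTAAACA, found in 3.17%, only in a Ccnd3 window. All motifs were searched on both strands, and none of the matches printed overlapped another. These are matches of letters and no binding was measured.

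Lung libraries held 11679046 to 15053144 counts and IFE libraries 12299004 to 18129164, and every pair of libraries within a group differed by more than counting noise. Replicate 3 of the old IFE group stood apart from the other 2 libraries of its group. Markers of 4T1 epithelium, such as Epcam and keratins, had a row for all 8 genes in every group, with a summed level of 4624 to 4720 CPM in old lung, 3508 to 3658 CPM in young lung, 2182 to 2338 CPM in old IFE and 2209 to 2235 CPM in young IFE. CPM are counts divided by library size, with TMM scaling across all 12 libraries. The 16 macrophage and monocyte markers summed to 105.6 to 110.6 CPM in old lung and to 942.9 to 961.9 CPM in young lung, and none was at 0 in either. In culture 9 of these 16 had no row, C1qa and Adgre1 among them, and the rest summed to at most 5.527 CPM in old IFE and 5.048 CPM in young IFE. Fibroblast and pericyte markers summed to 380.8 to 389.2 CPM in old lung, 318.7 to 341.3 CPM in young lung and at most 20.22 CPM in culture. In such bulk libraries fewer cells of a type and less RNA per cell cannot be told apart.

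The first comparison asked how these genes differed between 4T1 cells from old and from young lungs. Cdkn1a, Ccnd3, Cdkn2c, Cdk6 and Ccnd1 were lower in old lung, and Cdkn1b and Cdk4 were higher. A gene is called where the Benjamini-Hochberg adjusted p of edgeR's quasi-likelihood test is under 0.05. That made 7 of the 9 members tested called, 2 higher and 5 lower, where 40% of all 14096 genes tested were called, 19.6% higher and 20.4% lower. All the changes were small. None was called when tested against a fold of 1.2, where 1853 of all 14096 genes tested were. No member reached a 2-fold change, which 6.87% of all genes tested did, and the median absolute log2 fold change was 0.12 over the 9 members and 0.18 over all genes.

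Among the D cyclins, Ccnd1 (ENSMUSG00000070348, chromosome 7, 144483668 to 144493662, minus strand, in the files' coordinates, of a build not given in the sources used here) stood at 1180.0, 1164 and 1172 CPM in old lung, against 1226, 1233 and 1205 CPM in young lung. The groups did not overlap, with all old libraries below all young ones, but they lay within a few percent of each other. The log2 fold change was -0.05 (SE 0.019, edgeR adjusted p = 0.0292). The call was lost on leaving out any library other than young lung replicate 3, with adjusted p between 0.0249 and 0.131 over the 6 fits, and in the fit over all 12 libraries (adjusted p = 0.179). Ccnd2 (ENSMUSG00000000184, chromosome 6), which encodes cyclin D2, was at 44.3, 46.2 and 46.9 CPM in old lung and at 48.8, 48.1 and 49.7 CPM in young lung. It was not called (log2 fold change -0.08, 95% interval -0.22 to 0.05, edgeR adjusted p = 0.35), although its groups did not overlap. Ccnd3 (ENSMUSG00000034165, chromosome 17), which encodes cyclin D3, fell to 46.6, 48.7 and 54.2 CPM in old lung, against 60.8, 58.3 and 61.7 CPM in young lung. Its log2 fold change of -0.26 (SE 0.064, edgeR adjusted p = 0.000336) was the largest of the D cyclins, and old lung replicate 3 lay nearest to the young libraries.

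Of the kinases, Cdk4 (ENSMUSG00000006728, chromosome 10) was at 314.9, 306.9 and 302.9 CPM in old lung and at 287.2, 294.3 and 289.4 CPM in young lung. Every old library was above every young one, and the log2 fold change was 0.10 (SE 0.029, edgeR adjusted p = 0.00519). In a fit over all 12 libraries it was not called (adjusted p = 0.0774). Cdk6 (ENSMUSG00000040274, chromosome 5) moved the other way, with 182.3, 187.2 and 190.3 CPM in old lung and 210.4, 201.8 and 196.3 CPM in young lung. Its log2 fold change was -0.11 (SE 0.035, edgeR adjusted p = 0.00754). That call was lost without young lung replicate 1 (adjusted p = 0.0895) or old lung replicate 1 (adjusted p = 0.0561).

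Of the INK4 genes 1 was lower in old lung. Cdkn2c (ENSMUSG00000028551, chromosome 4), encoding p18, was at 125.7, 131.9 and 124.8 CPM in old lung and at 141.7, 151.4 and 141.1 CPM in young lung. The groups were apart, and the log2 fold change was -0.17 (SE 0.041, edgeR adjusted p = 0.000284). The call was lost when all 12 libraries were fitted together (adjusted p = 0.229). Cdkn2d (ENSMUSG00000096472, chromosome 9), encoding p19, was at 18.1, 20.2 and 21.7 CPM in old lung and at 22.4, 22.8 and 20.8 CPM in young lung. These groups overlapped, and the gene was not called (log2 fold change -0.12, 95% interval -0.32 to 0.08, edgeR adjusted p = 0.353).

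The CIP/KIP genes moved in opposite directions and had the lowest p-values of the members. Cdkn1a (ENSMUSG00000023067, chromosome 17, 29309950 to 29319701, plus strand), encoding p21, fell to 107.6, 108.9 and 111.6 CPM in old lung, against 141.0, 132.2 and 129.5 CPM in young lung. Every old library lay below every young one. The log2 fold change was -0.28 (SE 0.043, edgeR adjusted p = 2.37e-08), a 1.22-fold higher level in young lung, and 34% of all genes tested had a larger change. Cdkn1b (ENSMUSG00000003031, chromosome 6, 134897364 to 134902476, plus strand), encoding p27, rose to 101.0, 98.0 and 99.9 CPM in old lung, against 81.6, 87.4 and 84.0 CPM in young lung. The groups were apart, and the log2 fold change was 0.25 (SE 0.048, edgeR adjusted p = 7.31e-06). Both calls remained in each of the 6 fits that left out 1 library. Over the 9 members, 8 had groups that did not overlap, against 47.7% of all genes tested.

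Other cells in the sorted samples moved with this comparison. All 15 macrophage and monocyte markers tested were lower in old lung, with a median log2 fold change of -3.29, and 7 of the 8 epithelial markers were higher and 1 lower. Of the alveolar and airway epithelium markers 6 of 10 were higher and none lower, and their sum was 220.0 to 226.5 CPM in old lung and 156.2 to 161.9 CPM in young lung. In the cultured 4T1 cells the same list summed to 123.1 to 126.3 CPM in old IFE and 108.7 to 114.0 CPM in young IFE. This list therefore does not mark other cells alone. Neutrophil markers summed to 54.18 to 57.49 CPM in old lung and to 53.29 to 57.83 CPM in young lung. T, NK and B cell markers summed to 4.326 to 5.599 CPM in old lung and to 11.23 to 13.53 CPM in young lung, and endothelial markers to 30.76 to 33.97 CPM in old lung and to 23.27 to 26.37 CPM in young lung. The part of these cells in the members' differences was not tested.

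**Figure D1:**
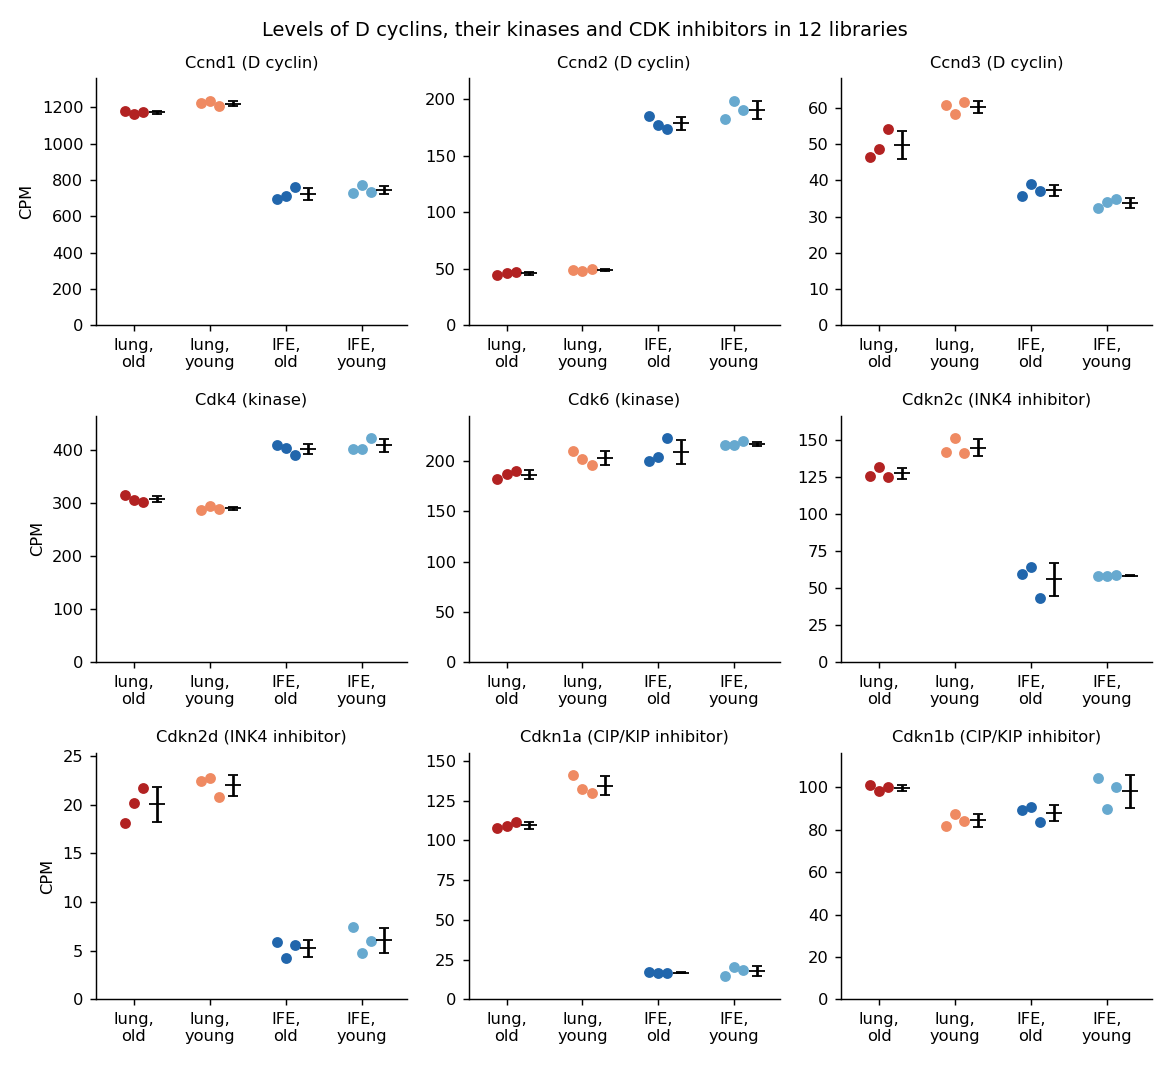
Levels in CPM (counts scaled to library size, linear axes from 0) of the 9 members with rows in both settings. Points are libraries, black bars are the mean and SD of 3. Old and young libraries lie close together within a setting, while Cdkn1a, Cdkn2c and Cdkn2d are higher, and Ccnd2 lower, in lung than in IFE culture.

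In IFE culture the same comparison called none of the 9 members, where 0.0839% of all 13118 genes tested were called. By edgeR's unadjusted p, 1 member was under 0.05, where 929 of all genes tested were, and limma-voom also called 0 members. DESeq2 called 0 of the 7 members for which it gave an adjusted p, with none given for Cdkn1a and Cdkn2d. The count over all genes rested on single libraries: it was 11 with all of them, 183 without old IFE replicate 3 and 1 to 8 without any other, and no member was called in any of these fits. Ccnd1 was at 697.5, 714.5 and 761.8 CPM in old IFE and at 729.3, 771.9 and 732.3 CPM in young IFE, and the groups overlapped. Cdkn1a was at 17.1, 16.7 and 16.6 CPM in old IFE and at 14.5, 20.3 and 18.8 CPM in young IFE, with the old libraries inside the young range (log2 fold change -0.08, 95% interval -0.34 to 0.18, edgeR adjusted p = 0.933). That interval holds the value of -0.28 seen in lung. The member with the unadjusted p under 0.05 was Cdkn1b, at 89.1, 90.5 and 83.4 CPM in old IFE and 104.4, 89.6 and 100.2 CPM in young IFE. Its log2 fold change was -0.16 (95% interval -0.29 to -0.03, edgeR adjusted p = 0.577), and old IFE replicate 2 lay above young IFE replicate 2.

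Ccnd3 was the only member whose old and young IFE libraries did not overlap, which 13.1% of all genes tested showed. It was at 35.7, 39.0 and 37.0 CPM in old IFE and at 32.4, 34.1 and 35.0 CPM in young IFE (log2 fold change 0.14, 95% interval -0.02 to 0.31, edgeR adjusted p = 0.751). Cdkn2c was at 59.7, 64.6 and 43.6 CPM in old IFE and at 58.0, 58.5 and 58.9 CPM in young IFE. Its spread in old IFE came from replicate 3, the library that stands apart, and its log2 fold change was -0.06 with all libraries and 0.09 without that one. For Ccnd1, Cdk4 and Cdk6 the 95% intervals reached no further than 0.15 on the log2 scale in either direction. Ccnd2 had an interval of -0.18 to 0.01 and Cdkn2d one of -0.62 to 0.21, the widest of the members.

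**Figure D2:**
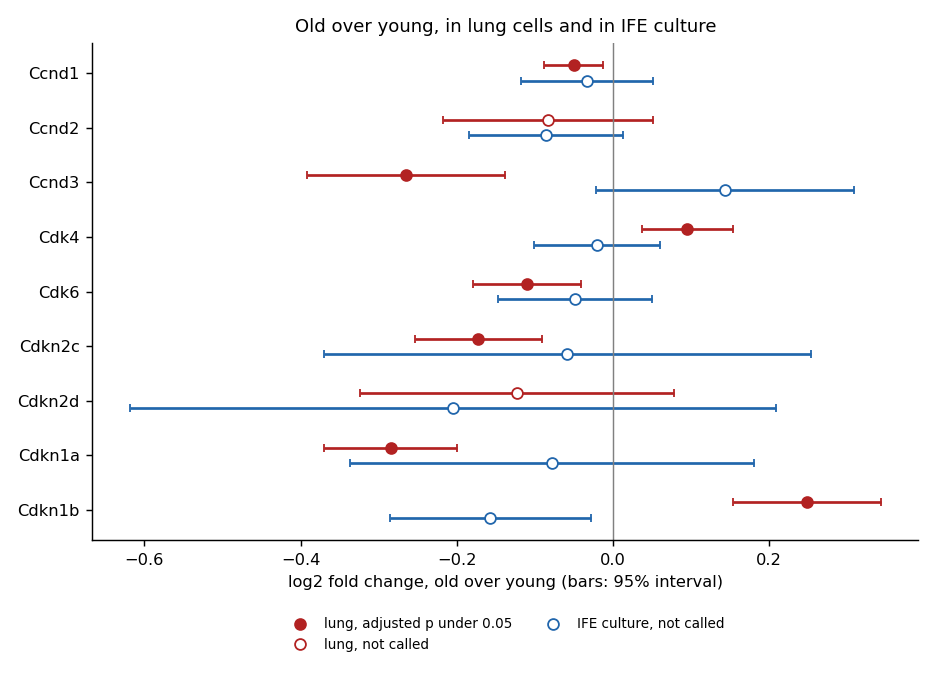
Log2 fold change of old over young for each member, with the lung comparison in red and the IFE comparison in blue. Filled points passed an edgeR adjusted p of 0.05, open points did not, and bars are 95% intervals. Cdkn1b, Ccnd3 and Cdk4 lie on opposite sides of 0 in the 2 settings, Cdk4 with an IFE value near 0 (-0.02).

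The difference between the 2 settings was then tested directly, as old over young in lung minus old over young in IFE. Cdkn1b and Ccnd3 were called, which is 2 of 9 members, 1 higher and 1 lower, where 17.5% of all 14318 genes tested were called, 9.1% higher and 8.37% lower. No member differed 2-fold or more between settings, which 2.67% of all genes did. For Cdkn1b the difference was 0.40 (SE 0.079, edgeR adjusted p = 0.000354), from a positive fold change in lung and a negative one in culture. For Ccnd3 it was -0.41 (SE 0.10, edgeR adjusted p = 0.00382), with the signs the other way round. Neither gene's IFE effect was itself called. Both differences were called in all 12 fits that left out 1 library, and neither was when tested against a fold of 1.2. Cdkn1a was not called (difference -0.22, 95% interval -0.44 to 0.01, edgeR adjusted p = 0.186), so its fall in old lung is not shown to differ from its IFE value. Cdkn2c was not called with all libraries (-0.12, edgeR adjusted p = 0.672), and was called without old IFE replicate 3 (-0.27, edgeR adjusted p = 0.00494).

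Lung and culture differed far more than old and young. Cdkn1a, Cdkn2d and Cdkn2c were more than 2-fold higher in lung, Ccnd2 was more than 2-fold lower, Ccnd1 and Ccnd3 were moderately higher, and Cdk4 and Cdk6 were somewhat lower. In the old groups all 9 members tested were called, 6 higher and 3 lower, where 74.6% of 14318 genes were called, 38.6% higher and 36.1% lower. In the young groups all 9 were called as well, 5 higher and 4 lower, where 76.2% of 14318 genes were, 39.3% higher and 36.9% lower. In CPM no member's lung and IFE libraries overlapped at either age. The same held for 75.7% of all genes in the old groups and 78.9% in the young. With most genes called, being called is near the background. Cdkn1a, Cdkn2d, Cdkn2c and Ccnd2 changed 2-fold or more, that is 4 of 9 at both ages, a share also not far from the background, where 30.6% of all genes did in the old groups and 33.2% in the young. Setting, the submitters' batch label, the deposited table and the shNT titles coincide and cannot be told apart.

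The D cyclins split. Ccnd1 averaged 1172 ± 8.10 CPM in old lung and 724.6 ± 33.3 CPM in old IFE (SD, n = 3 each). That is a log2 fold change of 0.69 (SE 0.033, edgeR adjusted p = 2.8e-20) in the old groups and of 0.71 (SE 0.033, edgeR adjusted p = 9.21e-21) in the young. Ccnd3 was 1.34-fold higher in lung in the old groups and 1.78-fold higher in the young. The size of this rise depended on the measure. In the authors' FPKM, Ccnd3 averaged 4.85 ± 0.370 in old lung and 4.43 ± 0.208 in old IFE (SD, n = 3 each). By FPKM these old groups overlapped, with the lowest lung library at 4.55 and the highest IFE library at 4.64. In young lung it averaged 5.85 ± 0.173 FPKM and in young IFE 4.01 ± 0.154 FPKM. Ccnd2 averaged 45.8 ± 1.31 CPM in old lung and 178.9 ± 5.77 CPM in old IFE, and 48.8 ± 0.782 CPM in young lung and 190.7 ± 8.00 CPM in young IFE (SD, n = 3 each). No lung library exceeded 49.7 CPM and no IFE library was under 173.9 CPM. Its log2 fold change was -1.96 at both ages (edgeR adjusted p = 3.28e-28 in the old groups and 1.57e-28 in the young), a level 3.90 times as high in culture.

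For the kinases the differences were smaller. Cdk4 averaged 308.2 ± 6.09 CPM in old lung and 401.7 ± 9.42 CPM in old IFE (SD, n = 3 each), a log2 fold change of -0.38 (SE 0.037, edgeR adjusted p = 1.13e-11), and the young groups gave -0.50 (SE 0.037, edgeR adjusted p = 9.5e-15). Cdk6 gave -0.16 (SE 0.043, edgeR adjusted p = 0.000969) in the old groups and -0.10 (SE 0.043, edgeR adjusted p = 0.0365) in the young. The young call of Cdk6 was lost with DESeq2's size factors (adjusted p = 0.0862), with DESeq2's test (adjusted p = 0.12) and without any 1 of 5 libraries, which were young lung replicates 2 and 3 and all of the young IFE ones.

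Both INK4 genes tested were higher in lung. Cdkn2c averaged 127.5 ± 3.88 CPM in old lung and 55.9 ± 11.0 CPM in old IFE (SD, n = 3 each), and was 2.28-fold higher in lung (log2 1.19, SE 0.11, edgeR adjusted p = 1.42e-06). Among young groups it was 2.48-fold higher (log2 1.31, SE 0.11, edgeR adjusted p = 5.25e-07). Cdkn2d averaged 20.02 ± 1.82 CPM in old lung and 5.25 ± 0.870 CPM in old IFE (SD, n = 3 each), a 3.78-fold higher level, and was 3.58-fold higher among the young groups. The lowest lung library of Cdkn2d, at 18.1 CPM, was above the highest IFE library, at 7.43 CPM.

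Cdkn1a showed the largest rise of the members. It averaged 109.4 ± 2.02 CPM in old lung and 16.8 ± 0.262 CPM in old IFE, and 134.2 ± 6.01 CPM in young lung and 17.8 ± 3.01 CPM in young IFE (SD, n = 3 each). It was 6.51-fold higher in lung in the old groups (log2 2.70, SE 0.077, edgeR adjusted p = 6.73e-27) and 7.56-fold higher in the young (log2 2.92, SE 0.076, edgeR adjusted p = 3.85e-28). Of all genes tested, 7.33% had a larger change in the old groups and 7.93% in the young. Cdkn1b, the other CIP/KIP member, changed sign with age in the TMM-scaled counts. It was 1.14-fold higher in lung in the old groups (log2 0.18, SE 0.056, edgeR adjusted p = 0.00359) and lower in lung in the young (log2 -0.22, SE 0.056, edgeR adjusted p = 0.000666). The change of sign is the same contrast as the difference between settings above. The higher level in old lung depended on the measure. In the authors' FPKM, described below, Cdkn1b averaged 18.7 ± 0.316 in old lung and 20.1 ± 0.836 in old IFE (SD, n = 3 each). In young lung it averaged 15.8 ± 0.515 FPKM and in young IFE 22.4 ± 1.69 FPKM. By FPKM it was thus lower in lung at both ages. The summed macrophage and fibroblast markers given above were also higher in lung than in culture, and so were the endothelial markers, which summed to at most 0.489 CPM in culture, where 4 of 8 had no row. The part of these cells in the members' differences was not tested.

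**Figure D3:**
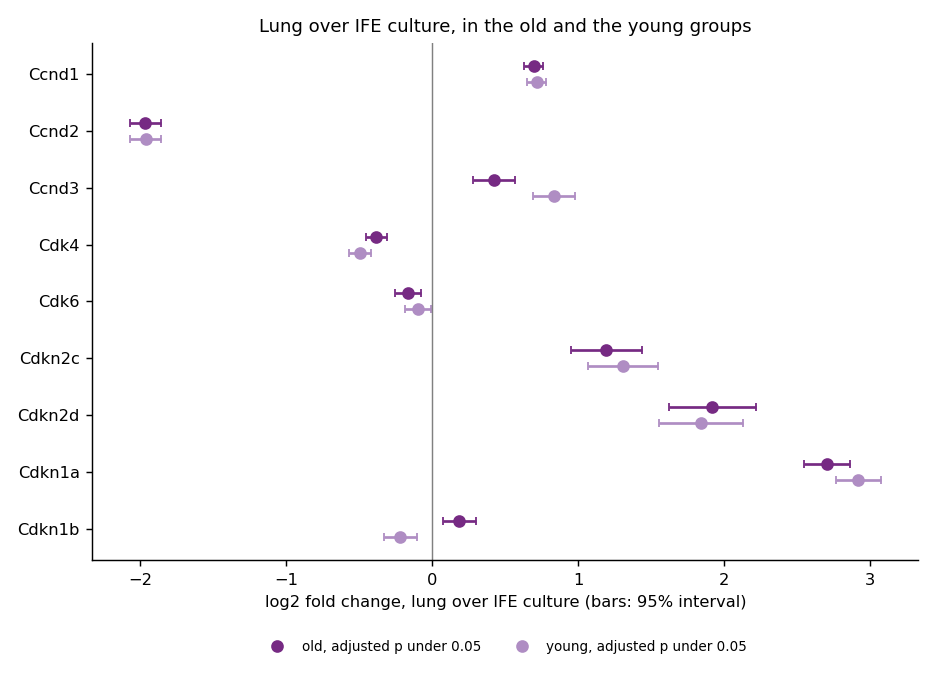
Log2 fold change of lung over IFE culture for each member, with the old groups in dark and the young groups in light purple. Bars are 95% intervals, and every point passed an edgeR adjusted p of 0.05. The ages agree in sign for 8 of 9 members, and Cdkn1b lies above 0 in the old and below 0 in the young groups. By FPKM, which are not drawn here, Cdkn1b was lower in lung at both ages.

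Levels of different genes were set beside each other with the authors' FPKM, which divide by gene length. By group mean, Ccnd1 was the highest member in all 4 groups, Cdk4 the second and Cdkn2c the third. Ccnd1 averaged 212.5 ± 1.91 FPKM in old lung, 220.9 ± 2.81 in young lung, 160.6 ± 7.88 in old IFE and 164.6 ± 5.84 in young IFE (SD, n = 3 each). It ranked 157 among 24396 genes in old lung and 141 in young lung. The order below the top 3 depended on the setting. In lung, old and young alike, it ran Cdkn1a, Cdkn1b, Cdk6, Cdkn2d, Ccnd3, Ccnd2 and Cdkn2b, and of these neighbours only Cdk6 and Cdkn2d overlapped in range. In old IFE it ran Cdkn1b, Ccnd2, Cdk6, Cdkn1a, Ccnd3 and Cdkn2d, and the ranges of Cdkn2c, Cdkn1b and Ccnd2 overlapped as neighbours. In young IFE the last 2 changed places, and the ranges of Cdkn1a, Cdkn2d and Ccnd3 overlapped as neighbours. Those of Cdkn2c, Cdkn1b and Ccnd2 did so there too, so the third place of Cdkn2c in culture holds for means only.

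Proportions within a library do not depend on its scaling. Ccnd1 made up 95.9 ± 0.222% of the summed D cyclin FPKM in old lung, 95.6 ± 0.145% in young lung, 86.9 ± 0.771% in old IFE and 86.8 ± 0.254% in young IFE (SD, n = 3 each). Ccnd2 made up 1.88 ± 0.0591% in old lung, 1.91 ± 0.0506% in young lung, 10.8 ± 0.717% in old IFE and 11.1 ± 0.188% in young IFE. D cyclin FPKM over Cdk4 and Cdk6 FPKM was 2.40 ± 0.0333 in old lung, 2.62 ± 0.0179 in young lung, 1.28 ± 0.0665 in old IFE and 1.29 ± 0.0626 in young IFE. Every lung library had proportionally more cyclin D RNA per kinase RNA than any IFE library, and every old lung library had less than any young one.

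INK4 FPKM over Cdk4 and Cdk6 FPKM was 0.557 ± 0.0224 in old lung, 0.654 ± 0.0192 in young lung, 0.174 ± 0.0256 in old IFE and 0.181 ± 0.00700 in young IFE. Cdkn1a made up 57.7%, 58.7% and 58.9% of the summed Cdkn1a and Cdkn1b FPKM in old lung and 68.9%, 66.0% and 66.4% in young lung. In old IFE it made up 19.7%, 19.1% and 20.3%, and in young IFE 15.1%, 22.5% and 19.4%. The p21 transcript was thus the more abundant of this pair per length in all 6 lung libraries and the less abundant in all 6 IFE libraries. These proportions are given as descriptions, with no test.

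**Figure D4:**
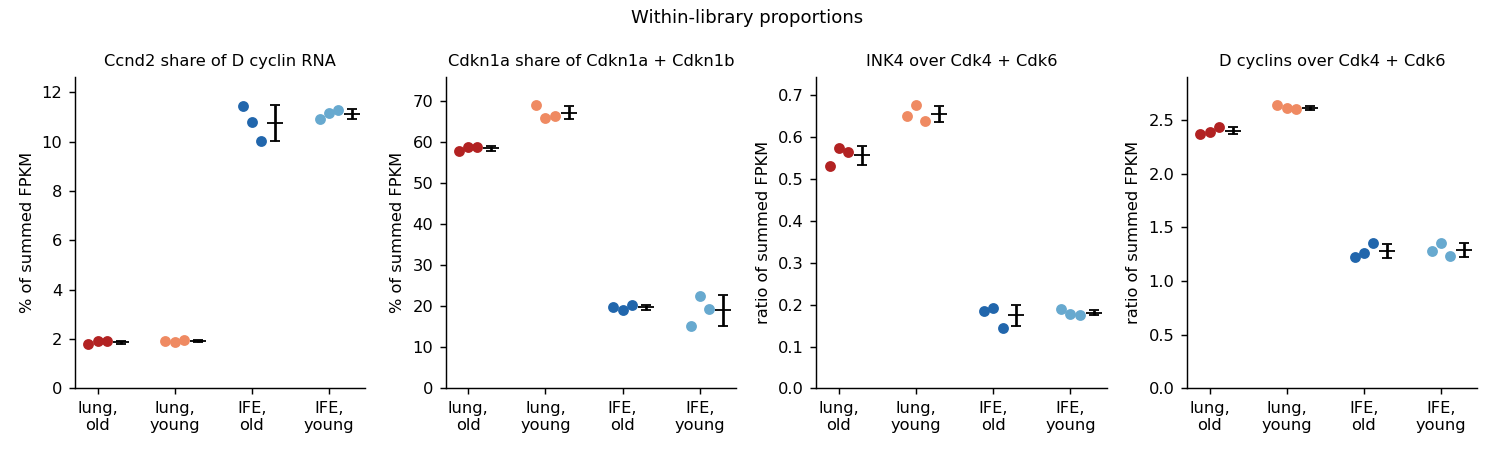
Proportions of length-scaled RNA (FPKM) within each library, with points for libraries and black bars for the mean and SD of 3. Lung libraries have a smaller Ccnd2 share, near 1.9%, and larger Cdkn1a share, INK4 ratio and D cyclin ratio than IFE libraries.

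Cdkn2b (ENSMUSG00000073802, chromosome 4, 89224536 to 89229276, minus strand), encoding p15, was the member with almost no reads. It had 2, 0 and 0 counts in old lung and 3, 2 and 1 in young lung, and was too low to be tested. A count of 3 corresponds to 0.209 to 0.270 CPM in these libraries, so no level above that was seen. Its neighbour Cdkn2a, which encodes the INK4 protein p16 and ARF, had 2 counts over the old lung libraries and 3 over the young, and no row in culture. On the other side of Cdkn2a, Mtap, a gene of the methionine salvage pathway, was well expressed at 658.4 CPM in old lung, 634.7 CPM in young lung, 554.7 CPM in old IFE and 573.9 CPM in young IFE. In the other direction the next protein-coding gene with a row in lung was Gm12666, which starts only at 92078981. Gm12666 was at 3.52 CPM in old lung and 1.80 CPM in young lung. Then came Tusc1, with 3 counts over the old lung libraries and 13 over the young and no row in culture. Caap1 and Plaa, farther along, were at 14.1 and 109.7 CPM in old lung and at 13.8 and 95.5 CPM in young lung. The INK4 transcripts of these cells were thus those of Cdkn2c and Cdkn2d, with Cdkn2c making up 78.8 ± 1.55% of INK4 FPKM in old lung, 79.3 ± 0.661% in young lung, 85.8 ± 3.88% in old IFE and 85.0 ± 2.82% in young IFE (SD, n = 3 each). Cdkn1c, the remaining CIP/KIP gene, was also near 0, with at most 3 counts in any library.

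Several members overlap a gene on the other strand, and the protocol does not say whether the libraries keep strand, so reads of the pair cannot be told apart there. Tspan31, which overlaps Cdk4, was at 57.5 CPM in old lung and 71.4 CPM in young lung and fell (log2 -0.30, SE 0.058, edgeR adjusted p = 9.73e-06) where Cdk4 rose. Bysl, which overlaps Ccnd3, was at 34.5 CPM in old lung, 37.1 CPM in young lung, 91.0 CPM in old IFE and 92.1 CPM in young IFE. It was not called between old and young lung (log2 -0.10, edgeR adjusted p = 0.342). The genes opposite Ccnd1, Ccnd2, Cdk6, Cdkn2b and Cdkn1a were at 15.4 CPM or lower in every group. Cdkn2c, Cdkn2d and Cdkn1b overlap no other gene of the tables.

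Genes of the steps that D cyclins and their inhibitors act on moved in both directions between old and young lung, and their called shares are to be read against the 40% of all genes that were called. Of 10 genes of the cyclin E, cyclin A and CDK2 axis, 2 were higher in old lung and none lower, with Mnat1, a subunit of the CDK-activating kinase, at log2 0.51 and the phosphatase gene Cdc25a at 0.29. Ccne1 (0.01) and Cdk2 (0.08) were not called. Of 13 pocket protein and E2F genes, 2 were higher and 3 lower. Rb1, encoding the retinoblastoma protein, fell to 29.3 ± 2.03 CPM in old lung, against 41.7 ± 3.76 CPM in young lung (SD, n = 3 each; log2 -0.50, SE 0.080, edgeR adjusted p = 1.11e-07). Tfdp2, a partner of E2F proteins, rose (log2 0.87, SE 0.079, edgeR adjusted p = 4.61e-17), and the repressive family member E2f4 fell (log2 -0.18). Of 20 replication genes, 6 were higher and 2 lower, with Tk1 at 0.26, Mcm7 at 0.19 and Mcm6 at 0.18. Of 16 G2/M genes, 4 were higher and 3 lower, with Foxm1 at 0.20, Ccnb2 at 0.18 and Cdc20 at 0.18, while the proliferation marker Mki67 was not called (354.3 ± 4.85 CPM in old lung and 347.2 ± 6.38 CPM in young lung, SD, n = 3 each). The median log2 fold change was 0.08, 0.00, 0.05 and -0.01 in these 4 lists, beside 0.00 over all genes tested.

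Of the genes that regulate the members, 6 of 16 in the MYC, MIZ1 and SMAD list were higher in old lung and 1 was lower. Myc rose (324.4 ± 0.603 CPM in old lung and 261.4 ± 7.57 CPM in young lung, SD, n = 3 each; log2 0.32, SE 0.030, edgeR adjusted p = 7.75e-17), Smad4 rose (log2 0.30), and Mxd1, a MYC antagonist, fell (log2 -0.59). MYC is known to repress Cdkn1a and to induce Cdk4. Whether these regulators had a part in the members' differences was not tested. Of 19 p53 genes tested, 3 were higher and 3 lower. Pmaip1, a pro-apoptotic target of p53, fell to 1.56 ± 0.052 CPM in old lung, against 9.00 ± 0.511 CPM in young lung (SD, n = 3 each; log2 -2.51, edgeR adjusted p = 1.36e-17). Btg2 (log2 0.31) and Plk2 (log2 0.18), also p53 targets, rose, and Trp53 itself was not called (log2 0.11, edgeR adjusted p = 0.0564). Of 15 genes for the turnover of D cyclins and p27, 6 were higher and none lower, with the ubiquitin ligase genes Ddb1 (log2 0.21), Cul1 (log2 0.17) and Cul4a (log2 0.15) among them. The median log2 fold change was 0.10 in the MYC list, -0.01 in the p53 list and 0.10 in the turnover list. In IFE culture edgeR called none of the genes of these 7 lists between old and young.

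Between lung and culture the same lists split. Their called shares are to be read against 74.6% of all genes called in the old groups and 76.2% in the young. Of all genes tested, 38.6% were higher and 36.1% lower in the old groups, and 39.3% higher and 36.9% lower in the young. All 16 G2/M genes were higher in lung in the young groups, and 15 of 16 in the old, with none lower, and the median log2 fold change was 0.71 in the old groups and 0.82 in the young. Mki67 was at 354.3 ± 4.85 CPM in old lung and 126.1 ± 5.27 CPM in old IFE (SD, n = 3 each; log2 1.49, SE 0.043, edgeR adjusted p = 7.45e-27). These rises stood beside the higher levels of the inhibitor genes Cdkn1a, Cdkn2c and Cdkn2d in the same libraries. Of 20 replication genes, 11 were higher and 6 lower in the old groups, and 9 were higher and 7 lower in the young. Of 18 p53 genes tested, 4 were higher and 11 lower in the old groups, and 5 were higher and 11 lower in the young. Trp53 was at 87.4 ± 2.29 CPM in old lung and 168.6 ± 15.4 CPM in old IFE (SD, n = 3 each; log2 -0.95, SE 0.053, edgeR adjusted p = 4.71e-18), and the target Zmat3 fell too (log2 -1.78). The 4 listed p53 targets called higher in lung at both ages were Btg2 (log2 6.43 in the old groups and 6.00 in the young), Tnfrsf10b (1.48 in the old groups and 1.46 in the young), Sesn1 (1.17 in the old groups and 0.91 in the young) and Mdm2 (0.49 in the old groups and 0.68 in the young). Sesn1 and Mdm2 were added to the genes named after their values were seen.

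Of the MYC, MIZ1 and SMAD list, 8 were higher and 5 lower in the old groups, and 8 were higher and 6 lower in the young. Klf4, encoding a transcription factor known to induce Cdkn1a, was at 459.0 ± 2.26 CPM in old lung and 16.4 ± 1.07 CPM in old IFE (SD, n = 3 each; log2 4.81, SE 0.052, edgeR adjusted p = 2.91e-40). Mxd1 (log2 3.24) and Smad7 (log2 1.61), an inhibitor of TGF-beta signalling, were also higher. Myc averaged 324.4 ± 0.603 CPM in old lung and 949.6 ± 98.1 CPM in old IFE (SD, n = 3 each). The part of these regulators in the members' differences between lung and culture was not tested. Of the turnover genes, 4 were higher and 6 lower in the old groups, and 3 were higher and 6 lower in the young, with Usp2, known to stabilise cyclin D1, higher at both ages (log2 4.57 in the old groups and 4.90 in the young). Usp2 averaged 31.3 CPM in old lung and 33.3 CPM in young lung. Its culture level was low, at 0.917 to 1.54 CPM in old IFE and 0.466 to 1.60 CPM in young IFE, so the size of its fold is imprecise. Rb1 was higher in lung as well (log2 0.26 in the old groups and 0.66 in the young). So were Ccne1 (log2 1.12 in the old groups and 1.02 in the young) and Cdk2 (log2 0.64 in the old groups and 0.59 in the young). These genes were named whatever their values, and their lists also held genes called lower in lung at both ages. Among the latter were E2f4 (log2 -1.24 in the old groups and -1.10 in the young) and Tfdp1 (-0.59 in the old groups and -0.48 in the young). Cdc25a (-0.59 in the old groups and -0.88 in the young) and Mnat1 (-0.70 in the old groups and -1.15 in the young) were lower too.

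The genes with the pattern most like that of a member were found by the root mean square difference of log2 CPM over the 12 libraries, each gene centred on its own mean, among 9458 genes with a mean of 10 CPM or more. For Ccnd1 they were Kifap3 (0.0397), Lrp5 (0.0399) and Tpm4 (0.0414), beside a median of 0.478 for all other genes. Lrp5 was at 370.2 CPM in old lung, 386.8 CPM in young lung, 233.4 CPM in old IFE and 235.0 CPM in young IFE. For Cdkn1a they were Clip4 (0.0762), Sesn3 (0.118) and Tmsb4x (0.119), beside a median of 1.46. Sesn3, a member of the sestrin family of stress genes, was at 451.1 CPM in old lung, 576.1 CPM in young lung, 79.6 CPM in old IFE and 75.1 CPM in young IFE. Genes were centred but not scaled, so a distance grows with the size of a gene's changes. The distances around Cdkn1a and around Ccnd1 are therefore not to be compared with each other.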

How the data were processed

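Counts per gene were deposited by the authors for each setting, with normalized signal (counts divided by 1 size factor per library) and FPKM. Per the submitters' processing notes HISAT2 2.0.5, featureCounts 1.5.0-p3 and DESeq2 were used. Those notes list a build of the human genome although the rows are mouse genes; the coordinates' own build is not stated in the sources used here. The deposited in vivo counts, as used here, lacked young lung replicate 3, whose reads were recovered from the normalized signal; 100% of values came out whole within 0.001 reads, and in the other 11 libraries 100% equalled the deposited counts.

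Old was compared with young in edgeR 4.0.16 (R 4.3.3) on the 6 libraries of a setting. The difference between settings, and lung against culture, came from 1 fit over 12 libraries. TMM scaling, the default low-count filter, a robust quasi-likelihood test and adjustment over all genes tested were used. The fits were also tested on simulated counts, drawn independently for each library. Such counts cannot show how the tests fare where libraries are technical repeats or where 1 library stands apart. Alternatives used DESeq2 1.42.0 and limma 3.58.1. Members and gene lists were chosen with earlier results of these data known. Beside the members, the text names up to 3 called genes of lowest p per list and comparison, 7 genes whatever their values, and the 3 genes most like Ccnd1 and Cdkn1a. Myc between lung and culture and the neighbours of Cdkn2b and genes overlapping members were added after their values were seen.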

Additional observations from a re-analysis of the deposited data

Results flagged for a closer look

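Cdkn1b and Ccnd3 were flagged because the difference between old and young was itself different in lung and in IFE culture. They are 2 of 9 members tested, a share not far from the 17.5% of all genes called for this contrast. Of all genes tested, 28.1% had a larger difference than Cdkn1b and 27.5% a larger one than Ccnd3. For Cdkn1b the log2 fold change of old over young was 0.25 in lung and -0.16 in IFE, a difference of 0.40 (SE 0.079, edgeR adjusted p = 0.000354). Every old lung library lay above every young one, while in IFE the groups overlapped. For Ccnd3 it was -0.26 in lung and 0.14 in IFE, a difference of -0.41 (SE 0.10, edgeR adjusted p = 0.00382). Its old and young libraries did not overlap in either setting. Such groups without overlap were seen for 47.7% of all genes tested in lung and for 13.1% in IFE. The lung samples also differed in macrophage markers, whose sum was 105.6 to 110.6 CPM in old lung and 942.9 to 961.9 CPM in young lung, and the part of these cells in the result was not tested.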

How the results depend on the processing

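Leaving out 1 library at a time gave 5 to 7 called members for old against young lung, 0 to 0 in IFE, 2 to 3 for the difference between settings, 9 to 9 for lung against culture in the old groups and 8 to 9 in the young. Over all genes these fits called 4906 to 5252 for old against young lung and 1 to 183 in IFE. Tested against a fold of 1.2, 0 members were called for old against young lung, where 1853 of all genes were, and 0 for the difference between settings. In the fit over all 12 libraries 4 members were called for old against young lung (Ccnd3, Cdk6, Cdkn1a and Cdkn1b), where 4147 of all genes were. The members lost there were at edgeR adjusted p = 0.179 (Ccnd1), 0.0774 (Cdk4) and 0.229 (Cdkn2c), and the cause was not tested. Ccnd1 was also lost with no low-count filter (adjusted p = 0.0714) and, like Cdk6, in limma on log2 FPKM (adjusted p = 0.062 and 0.104 with a pseudocount of 0.1). Signs turned only for uncalled values and only on leaving out a library: in IFE Cdk4 ran over -0.034 to 0.0, Cdkn2c over -0.173 to 0.092 and Cdkn1a over -0.209 to 0.019, and for the difference between settings Ccnd1 ran over -0.05 to 0.016, Ccnd2 over -0.039 to 0.029 and Cdkn2d over -0.093 to 0.201. Same-numbered libraries did not deviate together (correlations across genes of -0.03 to 0.03), and the replicate block left 7 members called for old against young lung and 0 in IFE, with every member's call as without it. The biological coefficient of variation between libraries (edgeR) was 0.0387 in lung and 0.0710 in IFE, so smaller differences could be called in lung, and Cdkn2d, with 61 to 119 counts per IFE library, was the least precisely measured member tested.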
